A study of Mus musculus with 37 samples.

Results

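Genes of the BCL2 family other than the best known targets of p53 were described here across 3 experiments. The 10 genes were Bcl2, Bcl2l1, Bcl2l2, Mcl1, Bak1, Bok, Bcl2l11, Bmf, Bik and Bad. The choice was made by name with no cut on a measured value, but with earlier results of these data known. They are 10 of the 30892 genes listed for CFs and 10 of the 31053 genes listed for cells of the injured heart. In the table of NRVM they are 9 of 20158 genes, and rat Mcl1 was not analysed here.

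The study asked how ENPP1, an enzyme on fibroblasts that splits extracellular ATP to AMP, changes the signals that pass from cardiac myocytes to other cells of the injured heart. NRVM (neonatal rat ventricular myocytes, Sprague-Dawley, wild type) received vehicle, ENPP1, ATP, ENPP1+ATP or AMP, and the medium taken from these cultures is called MCndM. It was added to CFs (cardiac fibroblasts of wild-type C57BL/6 mice immortalized with the SV40 antigen, kept without serum for 24 h before the medium), and CF RNA was sequenced at 24 or 48 h in 10 groups of 2 libraries. RNA of NRVM was sequenced at 24 h in 5 groups of 3 libraries, and the labels give their treatment too as the conditioned medium of each agent. Nonmyocytes of hearts at 7 days after myocardial infarction were sequenced as single cells in 1 control library (C57BL/6, labelled wild type) and 1 ENPP1CKO library. The ENPP1CKO mice carried Col1a2CreERT and ENPP1 fl/fl and were given tamoxifen from 5 days before to 7 days after injury, so the deletion was directed to cells in which the Col1a2 promoter drives Cre. The number of hearts in each of these libraries is not given in the sources used here.

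Proteins of the BCL2 family decide whether the outer membrane of mitochondria is opened during apoptosis. Prosurvival members (BCL2, BCL-XL from Bcl2l1, BCL-W from Bcl2l2, and MCL1) keep it closed by binding the effectors BAX and BAK, which form the pores. BH3-only members (BIM from Bcl2l11, BMF, BIK, BAD) bind prosurvival members or the effectors and favor opening, after which cytochrome c is released and caspases are activated. In the adult heart MCL1 and BCL-XL are known to be needed for the survival of myocytes.

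Total counts ranged from 32184799 to 115824659 in the CF libraries and from 13481389 to 16977980 in the NRVM libraries. The deepest CF library was vehicle 24 h replicate 1. Levels are given as CPM, the count relative to the library total scaled by TMM factors. Differences are log2 fold changes with their SE from edgeR's quasi-likelihood test, with Benjamini-Hochberg adjusted P values over the 17879 genes tested in CFs and the 13461 tested in NRVM, and a gene was called at an adjusted P under 0.05. All 10 genes passed the filter on low counts in CFs, and the 9 in NRVM did. The labels number the replicates but do not say that they were separate cultures. The paper states that its n counts biological replicates, and gives n = 2 for its principal component analysis of CFs. The P values measure the spread between these libraries, and the technical part of that spread was not tested. In bulk RNA, fewer cells of a kind and less RNA per cell cannot be told apart. The comparisons of ENPP1+ATP, AMP and ATP with vehicle share the same vehicle libraries and are given side by side. Where 1 CF library was left out, its group kept 1 library, and the spread was taken from the other groups alone.

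The 5 genes on which most of the CF results turn are shown by the 250 bases before their RefSeq start site (GRCm38.p6), read 5′ to 3′ on the strand of the gene, because they moved in different directions in the same media. Capitals mark matches to a FOXO core (TGTTTAC), a STAT core (TTCNNNGAA), an AP-1 core (TGANTCA), a CRE (TGACGTCA), an E-box (CACGTG), a GC box (GGGCGG) or a CCAAT box (CCAAT), searched on both strands. Bcl2l1 and Mcl1 are prosurvival genes that were higher in ENPP1+ATP and AMP MCndM, Bcl2 and Bmf were lower at 24 h, and Bcl2l11 was higher at 24 h. The windows are chr2:152831729-152831978 (minus strand) for Bcl2l1, chr3:95658471-95658720 (plus) for Mcl1, chr1:106714291-106714540 (minus) for Bcl2, chr2:118549687-118549936 (minus) for Bmf and chr2:128125788-128126037 (plus) for Bcl2l11.
Bcl2l1: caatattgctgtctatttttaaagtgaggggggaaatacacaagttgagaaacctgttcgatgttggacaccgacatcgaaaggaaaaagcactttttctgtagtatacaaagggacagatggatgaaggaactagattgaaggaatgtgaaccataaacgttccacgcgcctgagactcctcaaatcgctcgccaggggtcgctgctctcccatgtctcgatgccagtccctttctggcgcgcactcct
Mcl1: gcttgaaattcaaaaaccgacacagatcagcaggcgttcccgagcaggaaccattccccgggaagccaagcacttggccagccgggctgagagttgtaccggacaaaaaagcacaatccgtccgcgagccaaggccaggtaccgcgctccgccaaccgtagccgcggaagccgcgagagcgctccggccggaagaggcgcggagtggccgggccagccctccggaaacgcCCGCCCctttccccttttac
Bcl2: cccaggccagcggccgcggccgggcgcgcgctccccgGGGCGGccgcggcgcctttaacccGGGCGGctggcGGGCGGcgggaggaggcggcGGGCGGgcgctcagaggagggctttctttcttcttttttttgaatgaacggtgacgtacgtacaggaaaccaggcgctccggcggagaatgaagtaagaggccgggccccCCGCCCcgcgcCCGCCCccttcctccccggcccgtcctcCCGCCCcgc
Bmf: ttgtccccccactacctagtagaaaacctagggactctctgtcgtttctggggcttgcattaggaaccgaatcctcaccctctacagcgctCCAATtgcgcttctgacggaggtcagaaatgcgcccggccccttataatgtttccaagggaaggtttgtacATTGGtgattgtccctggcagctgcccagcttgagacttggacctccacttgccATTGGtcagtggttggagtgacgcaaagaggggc
Bcl2l11: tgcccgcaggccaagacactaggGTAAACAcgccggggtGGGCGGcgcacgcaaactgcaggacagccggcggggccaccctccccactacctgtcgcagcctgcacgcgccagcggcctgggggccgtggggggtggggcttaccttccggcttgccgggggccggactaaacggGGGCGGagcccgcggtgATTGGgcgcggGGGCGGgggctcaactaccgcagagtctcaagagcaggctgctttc

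Of the 10 genes, 9 had an entry in the promoter table, and where several start sites were listed the one nearest the annotated start of the gene was shown. The Bcl2 window had 7 GC boxes and 74.8% G and C, and the Mcl1 window had 1 GC box and 64.4% G and C. The Bmf window had 3 CCAAT boxes and no GC box. The Bcl2l11 window had 1 FOXO core, 3 GC boxes and 1 CCAAT box. The Bcl2l1 window, with 47.6% G and C, held none of these letters. Over 32536 distinct mouse promoter windows of this length, a GC box was found in 33.0%, a CCAAT box in 33.8%, a STAT core in 7.04%, an AP-1 core in 6.73%, an E-box in 6.04%, a FOXO core in 3.17% and a CRE in 1.56%. These matches describe letters only and were not tested against expression.

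After ENPP1+ATP or AMP MCndM, the prosurvival gene Bcl2l1 had the largest rise among the genes of the 10 that were called higher, and the BH3-only gene Bmf fell at both times. Mcl1 rose, Bcl2l2 fell, and Bcl2 fell at 24 h. Bcl2l11, which encodes the BH3-only protein BIM, rose at 24 h and was near the vehicle level at 48 h. With ENPP1+ATP MCndM, 3 of the 10 genes were called higher and 4 lower at each time, where 49.1% of all genes tested were called at 24 h (23.9% higher and 25.3% lower) and 45.2% at 48 h (20.8% and 24.4%). With AMP MCndM, 3 were higher and 4 lower at 24 h, and 3 higher and 2 lower at 48 h, where 52.8% (25.3% higher and 27.5% lower) and 44% (21.1% and 22.9%) of all genes were called. The median log2 fold change of the 10 genes was -0.13 and -0.26 with ENPP1+ATP and -0.43 and -0.03 with AMP MCndM at 24 and 48 h, against medians between -0.03 and 0.00 over all genes.

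Bcl2l1 (chr2:152780668-152831728, minus strand, GRCm38) encodes BCL-XL. At 24 h its level was 60.3 and 59.2 CPM with vehicle MCndM, 60.3 and 58.8 with ENPP1, 84.5 and 81.4 with ATP, 86.8 and 94.7 with ENPP1+ATP and 113 and 117 with AMP. At 48 h it was 57.1 and 59.2 CPM with vehicle, 55.4 and 60.0 with ENPP1, 96.5 and 94.9 with ATP, 170 and 165 with ENPP1+ATP and 182 and 186 with AMP. Vehicle and ENPP1 overlapped at both times, and ATP, ENPP1+ATP and AMP lay above them in that order without overlap. With ENPP1+ATP MCndM Bcl2l1 rose by 0.60 on the log2 scale at 24 h (SE 0.05, adjusted P = 4.66e-10) and by 1.53 at 48 h (SE 0.05, adjusted P = 1.69e-17), which is 1.52-fold and 2.88-fold. With AMP MCndM it rose by 0.94 at 24 h (SE 0.05, adjusted P = 9.36e-14) and by 1.66 at 48 h (SE 0.05, adjusted P = 2.84e-18), or 1.92-fold and 3.16-fold.

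Mcl1 (chr3:95658788-95663176, plus strand) encodes a prosurvival protein with a short half-life. Its level at 24 h was 207 and 217 CPM with vehicle, 216 and 210 with ENPP1, 236 and 233 with ATP, 239 and 239 with ENPP1+ATP and 247 and 243 with AMP. At 48 h it was 200 and 208 CPM with vehicle, 194 and 198 with ENPP1, 231 and 223 with ATP, 274 and 291 with ENPP1+ATP and 285 and 282 with AMP. All libraries of ENPP1+ATP and AMP MCndM lay above those of vehicle, and the distance was wider at 48 h. The rise was 0.17 at 24 h (SE 0.04, adjusted P = 0.00159) and 0.47 at 48 h (SE 0.04, adjusted P = 2.53e-09) with ENPP1+ATP, and 0.21 (SE 0.04, adjusted P = 0.000214) and 0.47 (SE 0.04, adjusted P = 2.17e-09) with AMP. Without vehicle 24 h replicate 1 the rise of Mcl1 with ENPP1+ATP at 24 h was 0.14 and its adjusted P was 0.0565.

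**Figure D1:**
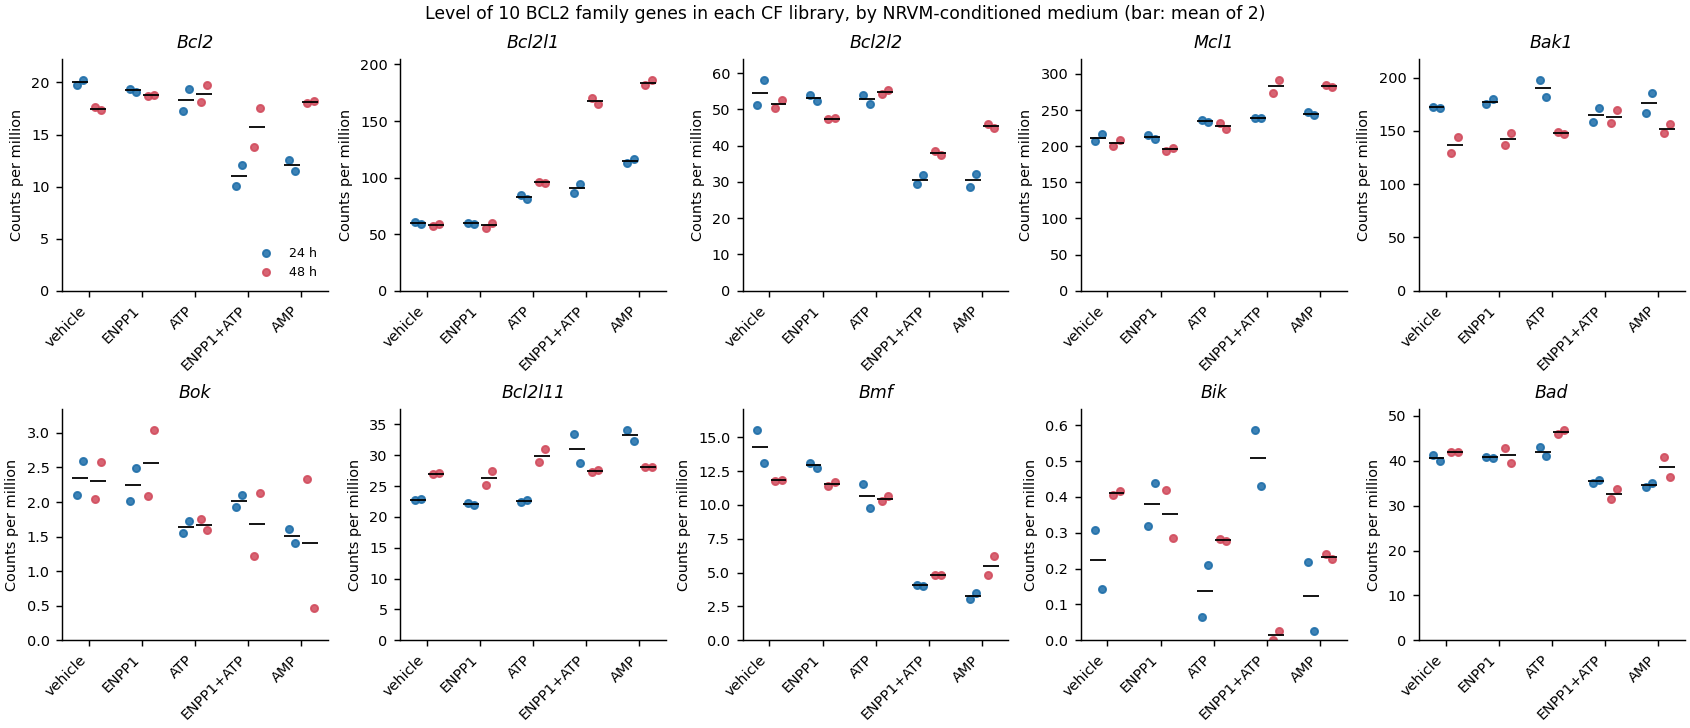
Levels of the 10 BCL2 family genes in the 20 CF libraries, with 1 panel per gene, the 5 media on the horizontal axis and CPM on a linear vertical axis from 0, where points are libraries (blue at 24 h, red at 48 h) and bars are means of 2. Bcl2l1 reached 165 to 186 CPM with ENPP1+ATP or AMP MCndM at 48 h against 57.1 and 59.2 with vehicle, and Bmf lay under the vehicle libraries in both media at both times.

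Bcl2 (chr1:106538178-106714274, minus strand) is the founding prosurvival gene. At 24 h its level was 19.8 and 20.2 CPM with vehicle, 19.4 and 19.1 with ENPP1, 17.2 and 19.4 with ATP, 10.0 and 12.0 with ENPP1+ATP and 12.6 and 11.5 with AMP. By 48 h its level was 17.6 and 17.3 CPM with vehicle, 18.7 and 18.8 with ENPP1, 18.1 and 19.8 with ATP, 13.8 and 17.5 with ENPP1+ATP and 18.0 and 18.2 with AMP. The libraries of ENPP1+ATP and AMP were the lowest at 24 h, and at 48 h those of ENPP1+ATP overlapped vehicle. Bcl2 fell by 0.85 at 24 h with ENPP1+ATP (SE 0.10, adjusted P = 1.97e-07) and by 0.73 with AMP (SE 0.10, adjusted P = 1.22e-06). At 48 h the differences were -0.16 (SE 0.10, adjusted P = 0.224) and 0.05 (SE 0.10, adjusted P = 0.727), and without ENPP1+ATP 48 h replicate 2, the higher of its pair, the difference was -0.33 with an adjusted P of 0.0186.

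Bcl2l2 (chr14:54883377-54888234, plus strand) encodes BCL-W. At 24 h its level was 51.2 and 58.1 CPM with vehicle, 53.9 and 52.3 with ENPP1, 54.0 and 51.5 with ATP, 29.5 and 31.8 with ENPP1+ATP and 28.7 and 32.2 with AMP. At 48 h it was 50.3 and 52.5 CPM with vehicle, 47.4 and 47.6 with ENPP1, 54.2 and 55.2 with ATP, 38.7 and 37.3 with ENPP1+ATP and 45.9 and 44.9 with AMP. ENPP1+ATP and AMP overlapped at 24 h, and all their libraries were below vehicle at both times. Bcl2l2 fell by 0.83 in each medium at 24 h (SE 0.07, adjusted P = 2.02e-10 with ENPP1+ATP and 1.12e-10 with AMP). At 48 h it fell by 0.43 with ENPP1+ATP (SE 0.07, adjusted P = 7.54e-06) and by 0.18 with AMP (SE 0.07, adjusted P = 0.0323), and the call with AMP was lost when any 1 of its 4 libraries was left out, in DESeq2 and with its size factors (adjusted P = 0.061 to 0.175). Of the exonic bases of Bcl2l2, 13.3% are shared with the annotated same-strand gene Gm20521, so part of its reads may belong to that gene.

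Among the BH3-only genes, Bmf (chr2:118528757-118549687, minus strand), whose protein is known to bind the motor proteins of the cytoskeleton, fell with ENPP1+ATP and with AMP at both times. At 24 h its level was 15.6 and 13.1 CPM with vehicle, 13.1 and 12.8 with ENPP1, 11.6 and 9.75 with ATP, 4.11 and 4.01 with ENPP1+ATP and 3.09 and 3.50 with AMP. By 48 h Bmf was at 11.7 and 11.9 CPM with vehicle, 11.4 and 11.7 with ENPP1, 10.3 and 10.6 with ATP, 4.84 and 4.84 with ENPP1+ATP and 4.81 and 6.21 with AMP. The 8 libraries of ENPP1+ATP and AMP were the 8 lowest of the 20. Bmf fell by 1.83 at 24 h (SE 0.13, adjusted P = 2.44e-11) and by 1.29 at 48 h (SE 0.13, adjusted P = 1.34e-08) with ENPP1+ATP, and by 2.11 (SE 0.13, adjusted P = 1.14e-12) and 1.1 (SE 0.13, adjusted P = 1.32e-07) with AMP.

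Bcl2l11 (chr2:128126038-128162547, plus strand) encodes BIM, which binds all prosurvival members and can activate BAX and BAK. At 24 h its level was 22.7 and 22.9 CPM with vehicle, 22.3 and 22.0 with ENPP1, 22.5 and 22.7 with ATP, 33.5 and 28.7 with ENPP1+ATP and 34.1 and 32.4 with AMP. At 48 h the 10 libraries lay between 25.3 and 31.0 CPM in all media, with vehicle at 27.0 and 27.1 and AMP at 28.1 and 28.1. The rise at 24 h was 0.45 with ENPP1+ATP (SE 0.07, adjusted P = 1.52e-05) and 0.54 with AMP (SE 0.07, adjusted P = 6.84e-07). At 48 h the differences were 0.02 (SE 0.07, adjusted P = 0.833) and 0.06 (SE 0.07, adjusted P = 0.579).

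Bad (chr19:6941861-6951899, plus strand) encodes a BH3-only protein held in the cytosol by 14-3-3 proteins when it is phosphorylated. At 24 h its level was 41.2 and 39.9 CPM with vehicle, 35.1 and 35.7 with ENPP1+ATP and 34.2 and 35.1 with AMP, and at 48 h it was 42.0 and 41.9 with vehicle, 31.6 and 33.7 with ENPP1+ATP and 41.0 and 36.3 with AMP. The fall was 0.20 at 24 h (SE 0.06, adjusted P = 0.0133) and 0.36 at 48 h (SE 0.06, adjusted P = 5.24e-05) with ENPP1+ATP, and 0.23 at 24 h with AMP (SE 0.06, adjusted P = 0.00378), while the difference with AMP at 48 h was -0.12 (SE 0.06, adjusted P = 0.143). With ENPP1+ATP at 24 h the call was lost without replicate 1 or replicate 2 of ENPP1+ATP or replicate 1 of vehicle (adjusted P = 0.0516 to 0.103). With AMP at 48 h, Bad was called without AMP replicate 1, at -0.20 with an adjusted P of 0.0382. Of the exonic bases of Bad, 20.5% overlap those of Gpr137 on the other strand, and Gpr137 fell by 1.04 with ENPP1+ATP at 24 h (SE 0.08, adjusted P = 2.01e-10). Whether the authors counted by strand is not given in the sources used here, so reads of these 2 genes in the overlap cannot be told apart.

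Bik (chr15:83526862-83544634, plus strand), a BH3-only gene of the endoplasmic reticulum, was close to absent from CFs. Its read counts at 24 h were 35 and 6 with vehicle, 13 and 21 with ENPP1, 3 and 9 with ATP, 24 and 19 with ENPP1+ATP and 9 and 2 with AMP, and at 48 h they were 22 and 20 with vehicle, 14 and 12 with ENPP1, 14 and 11 with ATP, 0 and 1 with ENPP1+ATP and 10 and 10 with AMP. The libraries of ENPP1+ATP at 48 h had the fewest reads of the 20, and the gene was called lower there (adjusted P = 0.00113). In CPM they were at 0 and 0.0271, and AMP 24 h replicate 2 was at 0.0262. No fold is given at such counts. Without AMP 24 h replicate 1, which left a single library with 2 reads, Bik was called lower with AMP at 24 h (adjusted P = 0.0155).

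Of the effector genes, Bak1 was called against vehicle at 48 h alone and Bok in no medium. Bak1 (chr17:27019810-27029009, minus strand) encodes BAK. At 24 h it measured 173 and 172 CPM with vehicle, 158 and 172 with ENPP1+ATP and 167 and 185 with AMP, and at 48 h 129 and 144 with vehicle, 157 and 170 with ENPP1+ATP and 148 and 156 with AMP. It was not called at 24 h (-0.06, adjusted P = 0.43, and 0.03, adjusted P = 0.674). At 48 h it was called higher by 0.26 with ENPP1+ATP (SE 0.06, adjusted P = 0.00136) and by 0.15 with AMP (SE 0.06, adjusted P = 0.0461), a time at which vehicle itself was lower than at 24 h by 0.33 (SE 0.06, adjusted P = 0.00154). All 3 of these calls were lost without vehicle 48 h replicate 1 (adjusted P = 0.0601, 0.445 and 0.0957), and that with AMP also without AMP 48 h replicate 2 (adjusted P = 0.247). Bak1 was the 1 gene of the 10 called between 48 and 24 h of vehicle, where 4.88% of all genes were called (1.68% higher and 3.2% lower). Ggnbp1, which shares exonic bases with Bak1 on the other strand, was not called in these 4 comparisons with vehicle (-0.44 to 0.30). Bok (chr1:93685660-93695764, plus strand), a related effector, was near 2 CPM, from 0.474 to 3.05 CPM over the 20 libraries, and was not called in any medium. Its differences from vehicle were imprecise, at -0.20 (SE 0.40) and -0.47 (SE 0.41) with ENPP1+ATP and -0.63 (SE 0.40) and -0.73 (SE 0.42, interval -1.55 to 0.09) with AMP at 24 and 48 h. Without AMP 48 h replicate 1, which left the library at 0.474 CPM alone, Bok was called lower with AMP (-2.27, adjusted P = 9.52e-05).

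**Figure D2:**
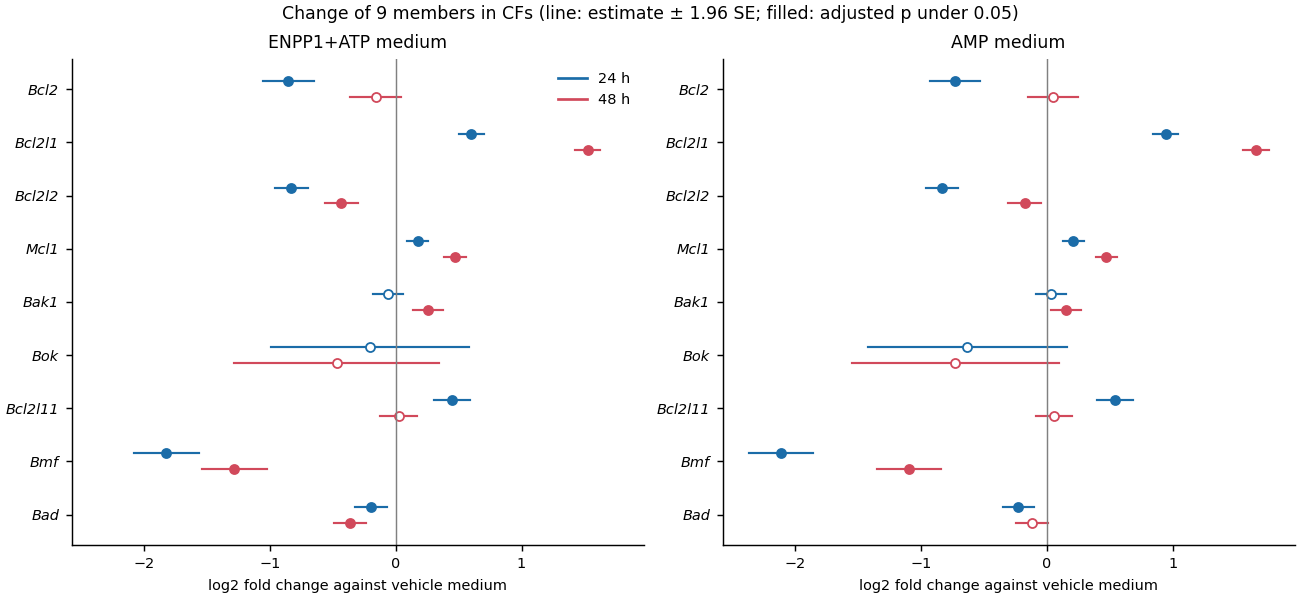
Log2 fold change against vehicle (horizontal axis) of 9 of the 10 genes in CFs with ENPP1+ATP MCndM (left) and AMP MCndM (right) at 24 h (blue) and 48 h (red), with lines for the normal 95% interval from the SE, filled points where the adjusted P was under 0.05, and Bik left out for its low counts. Bcl2l1 reached 1.53 and 1.66 at 48 h, and Bmf lay between -2.11 and -1.1.

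The response of these genes differed between 24 and 48 h. A test of the change with time in the difference from vehicle called 6 genes higher and 2 lower for ENPP1+ATP, where 30% of all genes were called (15.1% and 14.9%), and 5 higher and 1 lower for AMP, where 31.7% were (17.3% and 14.4%). Bcl2l1 and Mcl1 rose further by 48 h, by 0.92 (SE 0.07, adjusted P = 9.51e-10) and 0.29 (SE 0.06, adjusted P = 0.000624) with ENPP1+ATP. Bcl2 came back by 0.70 (SE 0.15, adjusted P = 0.000702) with ENPP1+ATP and by 0.78 (SE 0.14, adjusted P = 0.000145) with AMP, and Bcl2l2 by 0.40 (SE 0.09, adjusted P = 0.00232) and 0.66 (SE 0.09, adjusted P = 5.91e-06). For Bmf the difference from vehicle narrowed by 1.02 with AMP (SE 0.18, adjusted P = 0.000121) and by 0.54 with ENPP1+ATP (SE 0.19, adjusted P = 0.0302). The second call was lost when any of 7 libraries was left out (0.40 to 0.56). Both values include the change in vehicle itself, in which Bmf was lower at 48 h by 0.29 (SE 0.12, adjusted P = 0.207). Mean Bmf went from 4.06 to 4.84 CPM with ENPP1+ATP and from 3.30 to 5.51 with AMP. The rise of Bcl2l11 over vehicle at 24 h was reduced by 0.42 with ENPP1+ATP (SE 0.10, adjusted P = 0.00292) and by 0.49 with AMP (SE 0.10, adjusted P = 0.000693). Vehicle itself moved, with Bcl2l11 higher at 48 h by 0.25 (SE 0.07, adjusted P = 0.0519). That difference was called in DESeq2, with its size factors, with replicate number in the model and with only the groups compared. Mean Bcl2l11 went from 31.1 to 27.5 CPM with ENPP1+ATP and from 33.3 to 28.1 with AMP. For Bak1 the change with ENPP1+ATP was 0.32 (SE 0.09, adjusted P = 0.00663) and was lost without ENPP1+ATP 24 h replicate 1 or vehicle 48 h replicate 1 (adjusted P = 0.0584 and 0.0719).

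The single-agent media set the background. With ENPP1 MCndM none of the 10 genes was called by edgeR's test at either time and none had an unadjusted P under 0.05, and DESeq2 called none. Over all genes edgeR called 0 (0% of those tested), with 249 and 743 genes at an unadjusted P under 0.05 at 24 and 48 h, and DESeq2 called 0. The 95% interval of the difference was -0.11 to 0.10 for Bcl2l1 and -0.39 to 0.08 for Bmf at 24 h. With ATP MCndM, where 11.1% of all genes were called at 24 h (4.77% higher and 6.32% lower) and 7.83% at 48 h (5.35% and 2.48%), Bcl2l1 rose by 0.47 at 24 h (SE 0.05, adjusted P = 5.33e-07) and 0.72 at 48 h (SE 0.05, adjusted P = 8.58e-10). Mcl1 rose by 0.15 (SE 0.04, adjusted P = 0.0265) and 0.16 (SE 0.04, adjusted P = 0.0253) in turn, calls that were lost without either ATP library or vehicle replicate 1 at each time and without vehicle replicate 2 at 48 h (adjusted P = 0.0566 to 0.342). Bmf fell by 0.43 at 24 h (SE 0.12, adjusted P = 0.019) and was at -0.18 at 48 h (adjusted P = 0.529), and the call was lost without ATP 24 h replicate 2 or vehicle 24 h replicate 1 (adjusted P = 0.306 and 0.386). Thus 3 of the 10 genes were called at 24 h and 2 at 48 h.

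ENPP1+ATP MCndM was also compared with ATP MCndM, taken from myocytes given the nucleotide without the enzyme. At 24 h, 3 genes were higher and 5 lower, where 43.9% of all genes were called (21.8% and 22.1%), and at 48 h 2 were higher and 5 lower, where 39.5% were (18.2% and 21.3%). Bmf was lower by 1.39 at 24 h (SE 0.13, adjusted P = 7.19e-09) and by 1.11 at 48 h (SE 0.13, adjusted P = 2.66e-07), and Bcl2l2 by 0.78 (SE 0.07, adjusted P = 1.26e-09) and 0.53 (SE 0.07, adjusted P = 7.01e-07). Bcl2 was lower by 0.73 at 24 h (SE 0.11, adjusted P = 4.03e-06) and Bcl2l11 was higher by 0.46 (SE 0.07, adjusted P = 1.68e-05). Bcl2l1 differed by 0.13 at 24 h (SE 0.05, adjusted P = 0.0428) and by 0.81 at 48 h (SE 0.05, adjusted P = 4.16e-12), and Mcl1 by 0.03 (SE 0.04, adjusted P = 0.672) and 0.31 (SE 0.04, adjusted P = 2.29e-06). The call of Bcl2l1 at 24 h was lost without a filter on low counts and with only the groups compared. It was also lost without either ATP library or ENPP1+ATP replicate 2, and the difference was 0.07 to 0.15 over these settings. Bad was lower by 0.25 at 24 h (SE 0.06, adjusted P = 0.00283) and by 0.51 at 48 h (SE 0.07, adjusted P = 6.6e-07).

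The other calls against ATP MCndM were weaker. Bcl2 was lower by 0.27 at 48 h (SE 0.10, adjusted P = 0.0388). That call was lost in DESeq2, with its size factors and with only the groups compared. It was also lost without ATP 48 h replicate 2 or ENPP1+ATP 48 h replicate 1, and the difference was -0.27 to -0.11 over these settings. Bak1 was lower by 0.20 at 24 h (SE 0.06, adjusted P = 0.00848), lost without replicate 1 of either medium (adjusted P = 0.139 and 0.15). At 48 h Bak1 was not called (0.14, adjusted P = 0.0738). It was called in DESeq2, with its size factors, with replicate number in the model and without ENPP1+ATP replicate 1 (0.19). Bik was called higher at 24 h (adjusted P = 0.0494), lost without ATP replicate 1 or either ENPP1+ATP library and with replicate number in the model. Bik was called lower at 48 h (adjusted P = 0.00545), lost without ENPP1+ATP replicate 1.

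Between AMP and ENPP1+ATP MCndM edgeR called 1 of these genes at 24 h and none at 48 h. At 24 h Bcl2l1 was higher with AMP by 0.34 (SE 0.05, adjusted P = 0.00021), the 1 gene of the 10 called where 6.25% of all genes were (2.6% higher and 3.65% lower). Without AMP 24 h replicate 1 Bik was also called there (adjusted P = 0.021). At 48 h edgeR called none of the 10 genes, where 0.162% of all genes (29) were called (0.0895% higher and 0.0727% lower), with 4 of the 10 and 2460 of the 17879 genes at an unadjusted P under 0.05, and DESeq2 called none of the 10. The 95% interval of the difference at 48 h was 0.04 to 0.23 for Bcl2l1, 0.12 to 0.39 for Bcl2l2, -0.08 to 0.09 for Mcl1 and -0.09 to 0.46 for Bmf.

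Markers of cell types moved with these media. The summed level of a list of 9 fibroblast markers was 7207 to 7606 CPM with vehicle at 24 h, 3601 to 3691 with ENPP1+ATP and 2823 to 3050 with AMP. The sum of 8 macrophage markers was 3.15 to 3.17 CPM with vehicle at 24 h, 21.6 to 27.7 with ENPP1+ATP and 46.1 to 46.2 with AMP. At 48 h, in the order vehicle, ENPP1+ATP and AMP, the fibroblast sum was 7115 to 7522, 3872 to 4091 and 4074 to 4358 CPM, and the macrophage sum 3.83 to 3.93, 56.4 to 66.4 and 62.2 to 72.2 CPM. The sum of 8 smooth muscle or pericyte markers was 154 to 158, 215 to 218 and 210 to 228 CPM at 24 h, and 163 to 170, 400.01 to 415 and 443 to 468 CPM at 48 h. All ENPP1+ATP and AMP libraries were thus below vehicle in the fibroblast sum and above it in the macrophage and smooth muscle or pericyte sums at both times. The sum of 8 endothelial markers was 20.6 to 25.7 CPM with vehicle and 24.9 to 35.0 with these media over both times, and that of 8 cardiomyocyte markers 17.8 to 22.7 and 11.8 to 15.6. With ATP MCndM the fibroblast sum was 5226 to 5558 CPM at 24 h and 6915 to 6936 at 48 h, the macrophage sum 7.1 to 7.47 and 6.74 to 9.24, the endothelial sum 33.8 to 38.5 and 29.7 to 34.4, the smooth muscle or pericyte sum 124 to 132 and 167 to 189 and the cardiomyocyte sum 15.3 to 18.3 and 17.9 to 22.2. No marker of these 5 lists was at 0 in all libraries. The part of these shifts in the changes of the 10 genes was not tested.

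Levels of different genes were compared per kilobase of annotated exon, as CPM per kilobase. In vehicle at 24 h Bak1 stood highest (71.7 and 71.3), followed by Mcl1 (60.5 and 63.4), Bad (16.1 and 15.6), Bcl2l1 (13.2 and 12.9) and Bcl2l2 (11.5 and 13). Bcl2l11 (2.83 and 2.85), Bmf (2.96 and 2.49), Bcl2 (2.16 and 2.21) and Bok (1.14 and 1.41) formed a lower group, and Bik (0.193 and 0.0906) was last. The libraries of Bcl2l1 and Bcl2l2 overlapped, as did those of Bcl2l11 and Bmf, and the other neighbors in this order did not. Over all 20 libraries Bcl2l1 ranged from 12.1 to 40.6 and Bmf from 0.588 to 2.96 CPM per kilobase.

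Across the 20 CF libraries the log2 levels of some of the 10 genes ran together. Pearson's r was 0.97 for Bcl2l1 and Mcl1, 0.91 for Bcl2l2 and Bmf and 0.91 for Bcl2 and Bcl2l2, and it was -0.75 for Bcl2l11 and Bmf and -0.74 for Bcl2l1 and Bmf. The libraries share media, times and replicates, and the r is a description without a test. Among 10882 genes whose log2 CPM averaged 2 or more, those most like Bmf were Hopx (0.991), Ptov1 (0.989) and Vapb (0.986), and those most like Bcl2 were Slc35c2 (0.956), Tmem55a (0.956) and Sox5 (0.954).

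Other genes of the family and of the steps around it were counted from lists drawn up from general knowledge. Of 13 other BCL2 family genes 8 were tested in CFs, and 4 were higher and 1 lower in each of the 4 comparisons of ENPP1+ATP and AMP with vehicle, where 49.1% and 45.2% (ENPP1+ATP at 24 and 48 h) and 52.8% and 44% (AMP) of all genes were called. The list had a median of 0.31 and 0.27 for ENPP1+ATP and 0.40 and 0.37 for AMP at 24 and 48 h. Pmaip1, which encodes the BH3-only protein NOXA that binds MCL1, rose by 3.22 at 24 h (SE 0.14, adjusted P = 1.18e-11) and 2.92 at 48 h (SE 0.14, adjusted P = 3.72e-11) with ENPP1+ATP. Bax, the second main effector, rose by 0.59 (SE 0.07, adjusted P = 5.17e-08) and 1.04 (SE 0.07, adjusted P = 3.11e-12), and Bbc3, which encodes PUMA, by 0.40 (SE 0.10, adjusted P = 0.00103) and 0.38 (SE 0.10, adjusted P = 0.00223). These 3 are known p53 targets. Bcl2l13, a less studied member, rose by 0.23 at 24 h with ENPP1+ATP (SE 0.05, adjusted P = 0.000538) and by 0.16 with AMP (SE 0.05, adjusted P = 0.0104), and Bcl2l12 fell by 0.33 at 24 h with ENPP1+ATP (SE 0.10, adjusted P = 0.00549). Bid, whose BH3-only protein links death receptors to mitochondria, rose at 48 h by 0.17 with ENPP1+ATP (SE 0.05, adjusted P = 0.00497) and 0.29 with AMP (SE 0.05, adjusted P = 2.27e-05), and fell by 0.14 with AMP at 24 h (SE 0.05, adjusted P = 0.0156). Hrk, a BH3-only gene with a mean under 1 CPM in vehicle, was called lower at 48 h with ENPP1+ATP (adjusted P = 0.0106) and AMP (adjusted P = 0.00434).

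Downstream of the mitochondria, 14 genes were tested, and 4 were higher and 5 lower with ENPP1+ATP at 24 h, 4 higher and 7 lower at 48 h, 5 higher and 6 lower with AMP at 24 h and 4 higher and 7 lower at 48 h. Of all genes 23.9% were higher and 25.3% lower, 20.8% and 24.4%, 25.3% and 27.5%, and 21.1% and 22.9% in these 4 comparisons in the same order. With ENPP1+ATP at 24 h Apaf1, the scaffold of the apoptosome, rose by 0.48 (adjusted P = 2.4e-07) and Birc5, which encodes survivin, by 0.76 (adjusted P = 5.1e-10). Casp9, the initiator caspase gene, fell by 0.38 (adjusted P = 6.85e-05) and Htra2, a mitochondrial protease gene, by 0.77 (adjusted P = 3.38e-10), and Birc3, an inhibitor of apoptosis gene, by 0.44 (adjusted P = 0.000745). Of 15 regulators and partners, 5 were higher and 6 lower with ENPP1+ATP at 24 h, 5 higher and 4 lower at 48 h, 5 higher and 8 lower with AMP at 24 h and 5 higher and 2 lower at 48 h. Foxo3, a transcription factor known to act on Bcl2l11, rose by 0.72 at 24 h (adjusted P = 6.67e-11) and 1.13 at 48 h (adjusted P = 1.65e-14) with ENPP1+ATP. Fbxw7, part of a ubiquitin ligase that targets MCL1, rose by 0.79 at 24 h (adjusted P = 2.15e-09), and Usp9x, which removes ubiquitin from MCL1, fell by 0.42 (adjusted P = 2.38e-07). The transcription factor gene E2f1 rose by 0.55 (adjusted P = 6.02e-08), and Ywhaz, a 14-3-3 gene, and Vdac3, a channel gene of the outer mitochondrial membrane, fell by 0.35 (adjusted P = 6.65e-07) and 0.32 (adjusted P = 1.22e-05).

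In NRVM, also labelled as treated with the conditioned media, Bcl2l1 and Bcl2l11 rose and Bad fell with ENPP1+ATP and with AMP, and Bcl2 and Bcl2l2 were not called. With ENPP1+ATP 4 of the 9 genes were higher and 1 lower, where 56% of all genes were called (28.6% higher and 27.4% lower). DESeq2 called 3 of these 5, without Bcl2l1 (adjusted P = 0.061) and Bik (adjusted P = 0.0527). With AMP 3 were higher and 1 lower, where 57.2% were (29.2% and 28%), and with ATP 3 were higher and 1 lower, where 59.9% were (30.2% and 29.7%). The median log2 fold change of the 9 genes was 0.14 with ENPP1+ATP, 0.08 with AMP and 0.03 with ATP, against 0.01 over all genes each time. These tables were normalized apart from those of CFs, so no level was set across them.

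Bcl2l1 in NRVM was at 81.9, 83.1 and 75.5 CPM with vehicle, 72.7, 72.1 and 72.6 with ENPP1, 115, 114 and 119 with ATP, 97.7, 86.0 and 81.9 with ENPP1+ATP and 110, 112 and 99.9 with AMP. ATP and AMP lay above vehicle without overlap, whereas ENPP1+ATP overlapped it. The rise was 0.53 with ATP (SE 0.05, adjusted P = 2.75e-11), 0.42 with AMP (SE 0.06, adjusted P = 1.15e-08) and 0.14 with ENPP1+ATP (SE 0.06, adjusted P = 0.0289). The call with ENPP1+ATP was lost without ENPP1+ATP replicate 1 (adjusted P = 0.349) or vehicle replicate 3 (adjusted P = 0.173). ENPP1+ATP was below ATP by 0.39 (SE 0.05, adjusted P = 1.91e-07), and AMP was above ENPP1+ATP by 0.28 (SE 0.05, adjusted P = 0.000263).

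Bcl2l11 in NRVM was at 32, 33.9 and 28.1 CPM with vehicle, 34.9, 34.0 and 32.8 with ENPP1, 31.5, 30.1 and 34.6 with ATP, 41.2, 44.5 and 39.3 with ENPP1+ATP and 46.3, 42.1 and 44.2 with AMP. The 6 libraries of ENPP1+ATP and AMP lay above all 9 of the other groups. It rose by 0.41 with ENPP1+ATP (SE 0.07, adjusted P = 5.62e-06) and by 0.49 with AMP (SE 0.07, adjusted P = 1.39e-07), and ENPP1+ATP was above ATP by 0.38 (SE 0.07, adjusted P = 4.51e-05).

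**Figure D3:**
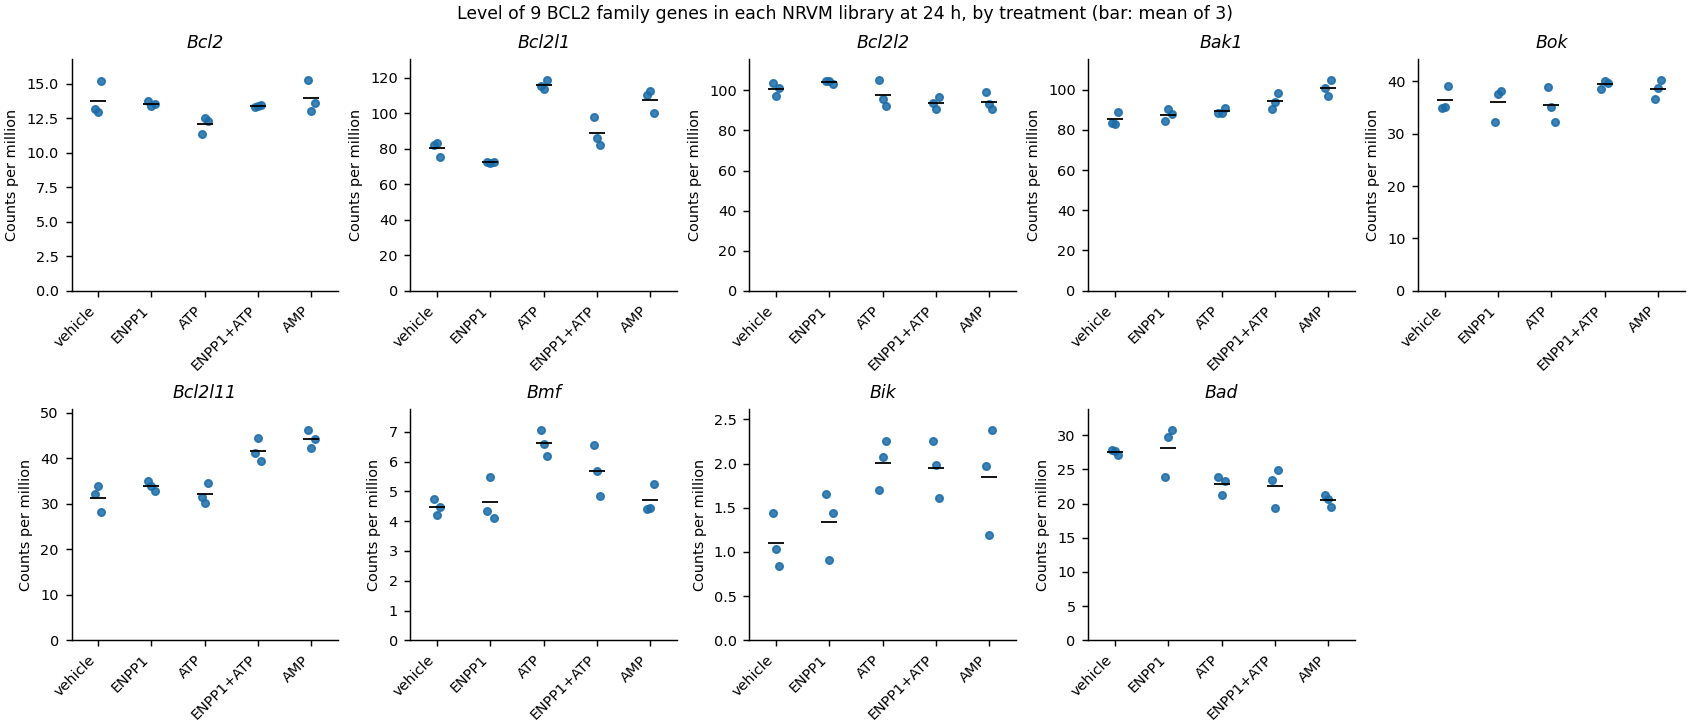
Levels of the 9 BCL2 family genes in the 15 NRVM libraries at 24 h, with 1 panel per gene, the 5 treatments on the horizontal axis and CPM on a linear vertical axis from 0. Points are libraries and bars are the means of 3. Bcl2l11 lay between 39.3 and 46.3 CPM with ENPP1+ATP or AMP, above the other 9 libraries, and Bcl2l1 was highest with ATP at 114 to 119 CPM.

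Bad in NRVM was at 27.8, 27.6 and 27.2 CPM with vehicle, 23.9, 21.3 and 23.3 with ATP, 23.5, 19.4 and 24.9 with ENPP1+ATP and 21.2, 20.7 and 19.6 with AMP. All 9 libraries of ATP, ENPP1+ATP and AMP were below the 3 of vehicle. With ENPP1 Bad was at 23.9, 29.7 and 30.8 CPM, on both sides of vehicle. The lowest ENPP1 library lay within the range of ENPP1+ATP. Bad fell by 0.43 with AMP (SE 0.09, adjusted P = 0.000104), by 0.29 with ENPP1+ATP (SE 0.09, adjusted P = 0.00664) and by 0.27 with ATP (SE 0.09, adjusted P = 0.00833). Without replicate 2 of ENPP1+ATP or of ATP the respective adjusted P was 0.104 or 0.0576.

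Bak1 in NRVM was at 83.6, 82.9 and 89.0 CPM with vehicle, 90.2, 93.8 and 98.3 with ENPP1+ATP and 101, 96.9 and 105 with AMP. ENPP1+ATP and AMP lay above vehicle, by 0.15 (SE 0.05, adjusted P = 0.0119) and 0.24 (SE 0.05, adjusted P = 4.78e-05). Bak1 was at 84.3, 90.6 and 87.9 CPM with ENPP1 and 88.1, 88.6 and 91.0 with ATP. Both of these groups overlapped vehicle and ENPP1+ATP. The call with ENPP1+ATP was lost without its replicate 3 or without vehicle replicate 1 or 2 (adjusted P = 0.0557 to 0.0819).

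Bmf in NRVM was at 4.74, 4.2 and 4.49 CPM with vehicle, 7.07, 6.59 and 6.18 with ATP, 6.55, 5.68 and 4.85 with ENPP1+ATP and 4.41, 4.43 and 5.26 with AMP. It rose by 0.56 with ATP (SE 0.16, adjusted P = 0.0033), and the differences with ENPP1+ATP (0.34, SE 0.17, adjusted P = 0.0814) and AMP (0.07, SE 0.17, adjusted P = 0.764) were not called. Without ENPP1+ATP replicate 3 the adjusted P with ENPP1+ATP was 0.0394. Bik was low, from 0.837 to 2.38 CPM, and was called higher with ENPP1+ATP (0.80, SE 0.33, adjusted P = 0.0346) and ATP (0.85, SE 0.32, adjusted P = 0.022) but not with AMP (0.73, SE 0.33, adjusted P = 0.0579). The calls of Bik were lost with ENPP1+ATP without its replicate 1 or 2 or vehicle replicate 2 or 3 (adjusted P = 0.0669 to 0.13), and with ATP without its replicate 3 or vehicle replicate 2 or 3 (adjusted P = 0.0628 to 0.0938). With AMP Bik was called without AMP replicate 2 or vehicle replicate 1 (adjusted P = 0.0174 and 0.0336).

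Bcl2 ranged from 11.4 to 15.3 CPM, Bcl2l2 from 90.8 to 105 and Bok from 32.2 to 40.2 over the 15 NRVM libraries, and none was called against vehicle. Without AMP replicate 1 Bcl2l2 was called lower with AMP (-0.14, adjusted P = 0.0372). Between ENPP1+ATP and ATP, Bcl2l11 was higher and Bcl2l1 lower, where 27.5% of all genes were called (14.1% higher and 13.5% lower), and without ATP replicate 1 Bok was called as well (0.23, adjusted P = 0.0282). Between AMP and ENPP1+ATP Bcl2l1 alone of the 9 was called, where 9.66% of all genes were (5.81% higher and 3.85% lower). With ENPP1 alone edgeR called none of the 9 genes and 0% of all genes, with 1 of the 9 and 693 of all genes at an unadjusted P under 0.05, and DESeq2 called none. The 1 gene was Bcl2l1, at -0.15 (SE 0.06, adjusted P = 0.84).

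The NRVM libraries also held fibroblast transcripts that moved with the treatment. The sum of 8 fibroblast markers was 24929 to 26309 CPM with vehicle, 10538 to 11882 with ATP, 8438 to 8897 with ENPP1+ATP and 11713 to 12505 with AMP. The sum of 7 cardiomyocyte markers was 15833 to 16662 CPM with vehicle, 11397 to 12060 with ATP, 15344 to 16061 with ENPP1+ATP and 16704 to 18642 with AMP. In the order vehicle, ATP, ENPP1+ATP and AMP, the sum of 7 macrophage markers was 2.97 to 3.37, 11.5 to 13.9, 7.03 to 8.34 and 6.51 to 8.98 CPM, that of 6 endothelial markers 24.2 to 29.7, 43.5 to 55.6, 33.2 to 35.8 and 26.5 to 55.1 CPM, and that of 8 smooth muscle or pericyte markers 609 to 628, 638 to 715, 528 to 572 and 527 to 627 CPM. No marker was at 0 in all libraries, and the part of these shifts in the results was not tested. Of 5 other family genes tested, 2 were higher and 1 lower with each of ENPP1+ATP, AMP and ATP, where 56%, 57.2% and 59.9% of all genes were called. Pmaip1 was the lower one with ENPP1+ATP (-0.80, SE 0.08, adjusted P = 7.22e-12) and AMP (-0.55, SE 0.08, adjusted P = 4.46e-08), and Bax was higher with both (0.31, SE 0.05, adjusted P = 1.89e-06, and 0.44, SE 0.05, adjusted P = 5.51e-10). Of 13 downstream genes, 5 were higher with ENPP1+ATP and 6 with AMP and none lower in either by edgeR's test, where 28.6% and 29.2% of all genes were higher and 27.4% and 28% lower.

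In nonmyocytes of the injured heart the 10 genes differed in the cell types that held them. The control library had 5347 barcodes with 22746607 counts, of which 5237 cells with a median of 3701 counts were kept, and the ENPP1CKO library had 7460 barcodes with 28039559 counts, of which 7262 cells with a median of 3367.5 counts were kept. The libraries shared 68 barcodes. Enpp1 was at 68.9 CPM over all control cells and 20.9 CPM over all ENPP1CKO cells, the direction of the labels. Cell types were rebuilt by clustering without the 10 genes and named from markers, so the names are the result of that clustering. Fibroblast-like cells numbered 1478 in control and 3604 in ENPP1CKO, macrophage-like cells 1620 and 1956, endothelial-like cells 192 and 935, and T or NK cell-like cells 138 and 177. An unnamed cluster led by Acta2 and Cthrc1 held 375 control and 113 ENPP1CKO cells. Each genotype had 1 library, so no test was made. The intervals are exact 95% Poisson limits of summed counts that cover counting error only.

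Among the named classes, Mcl1 was highest in neutrophil-like cells, at 664 CPM (95% interval 499 to 867) in control, from 97 cells. Macrophage-like cells had 280 CPM (267 to 293) in control and 267 (255 to 280) in ENPP1CKO, against 81.4 (75.0 to 88.2) and 92.6 (87.9 to 97.5) in fibroblast-like cells and 89.3 (66.3 to 118) and 98.6 (84.4 to 115) in endothelial-like cells. In T or NK cell-like cells it was at 28.5 (12.3 to 56.2) and 73.3 (47.4 to 108), from 8 and 25 counts.

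Of the named classes, T or NK cell-like cells had the highest Bcl2 and neutrophil-like cells the highest Bcl2l11. For Bcl2l11 the intervals of these 2 classes overlapped. Bcl2 was at 246 CPM (191 to 311) in control and 384 (321 to 455) in ENPP1CKO T or NK cell-like cells. In fibroblast-like cells it was at 22.1 (18.8 to 25.8) and 21.9 (19.6 to 24.3), and in macrophage-like cells at 19.3 (16.1 to 23.0) and 17.5 (14.5 to 21.0). Bcl2l11 was at 242 CPM (188 to 307) and 196 (152 to 249) in T or NK cell-like cells, at 116 (108 to 124) in macrophage-like cells of each genotype, and at 17.7 (14.8 to 21.0) and 25.8 (23.3 to 28.4) in fibroblast-like cells. In neutrophil-like cells of control it was at 344 CPM (229 to 498), where Bcl2 had 0 counts and 3 counts would be 36.9 CPM.

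Among the named classes, Bok and Bik were highest in endothelial-like cells. Endothelial-like cells had Bok at 123 CPM (95.9 to 156) in control and 98.6 (84.4 to 115) in ENPP1CKO, and Bik at 48.2 (31.8 to 70.2) and 52.5 (42.2 to 64.4). Fibroblast-like cells had Bok at 24.3 (20.8 to 28.1) and 21.4 (19.1 to 23.8) but Bik at only 0.549 (0.15 to 1.41) and 0.704 (0.351 to 1.26). Macrophage-like cells had Bok at 1.23 (0.530 to 2.42) and 0.598 (0.163 to 1.53), and T or NK cell-like cells had no count of Bok in either library, where 3 counts would be 10.7 and 8.79 CPM.

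The other 5 genes are given by class. Bad was at 98.7 CPM (91.6 to 106) and 93.5 (88.8 to 98.5) in fibroblast-like cells, 82.2 (60.2 to 110) and 108 (93.4 to 125) in endothelial-like cells and 60.6 (54.7 to 66.8) and 51.4 (46.1 to 57.2) in macrophage-like cells. Bak1 was at 29.4 (25.6 to 33.6) and 22.2 (19.9 to 24.7) in fibroblast-like, 36.0 (31.6 to 40.9) and 25.9 (22.2 to 30.0) in macrophage-like and 50.01 (33.2 to 72.3) and 47.3 (37.6 to 58.7) in endothelial-like cells. Bcl2l1 was at 11 (8.71 to 13.7) and 10.8 (9.24 to 12.6) in fibroblast-like cells, and at 25.8 (22.0 to 30.0) and 31.8 (27.7 to 36.4) in macrophage-like cells. Bcl2l2 was at 7.69 (5.81 to 9.98) and 8.06 (6.72 to 9.60) and Bmf at 2.88 (1.78 to 4.41) and 2.11 (1.45 to 2.97) in fibroblast-like cells.

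**Figure D4:**
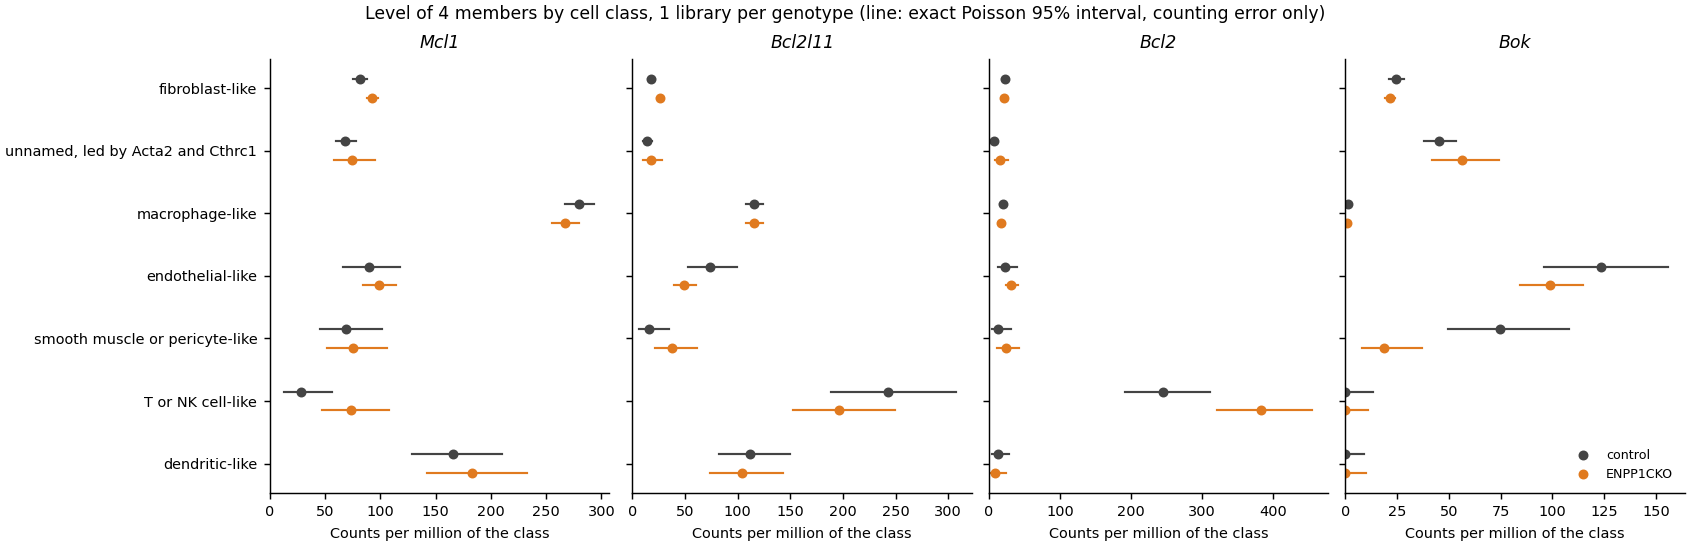
Levels of Mcl1, Bcl2l11, Bcl2 and Bok (1 panel each) in 7 cell classes of the control (dark) and ENPP1CKO (orange) libraries at 7 days after injury, as CPM of the class on linear axes from 0 with exact 95% Poisson intervals of counting error. Mcl1 was highest of the classes shown in macrophage-like cells at 280 and 267 CPM, Bcl2 stood apart in T or NK cell-like cells at 246 and 384 CPM, and Bok was highest of the classes shown in endothelial-like cells.

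Between genotypes, ratios were taken within a class where a gene had at least 20 counts in both libraries together, with exact binomial intervals that cover counting error only, and a ratio past 1.5-fold was counted. In fibroblast-like cells 0 of the 9 genes with a ratio were past it, where 13.2% of all genes were. Bcl2l11 was higher in ENPP1CKO by 0.54 on the log2 scale (95% interval 0.25 to 0.84), Mcl1 higher by 0.19 (0.05 to 0.33) and Bak1 lower by 0.40 (interval -0.65 to -0.15). Bcl2 (-0.01, -0.29 to 0.27), Bcl2l1 (-0.02, -0.41 to 0.38) and Bad (-0.08, -0.21 to 0.05) had intervals that include 0. With cells thinned to 1000 counts 3 genes were past 1.5-fold in place of 0, and these were Bcl2l1 at 0.65, Bcl2l11 at 0.94 and Bak1 at -0.69. The clusters of the class were shared differently between the libraries, as 971 of 1478 control cells were in the cluster led by Sfrp2 and Eln against 1560 of 3604 ENPP1CKO cells, and 361 and 1598 cells were in that led by Aspn and Cilp. The cluster led by Acta2 and Cthrc1 was also added, a choice made after seeing the data. Bcl2 was then at 0.29 (0.03 to 0.55), Bcl2l11 at 0.63 (0.37 to 0.89) and Mcl1 at 0.24 (0.12 to 0.37). Lower in ENPP1CKO were Bak1 at -0.52 (-0.73 to -0.30), Bok at -0.39 (-0.61 to -0.17) and Bad at -0.15 (-0.26 to -0.03). The intervals of Bcl2l1, Bcl2l2 and Bmf included 0 there.

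In macrophage-like cells 0 of the 9 genes were past 1.5-fold, where 12.2% of all genes were. Bak1 was lower in ENPP1CKO by 0.48 (interval -0.77 to -0.19), Bad lower by 0.24 (-0.45 to -0.02) and Bcl2l1 higher by 0.31 (0.01 to 0.61), and Mcl1 was at -0.07 (-0.16 to 0.03). With cells thinned to 1000 counts Bak1 was past 1.5-fold, at -0.91. Over all cells Mcl1 was at 210 CPM (204 to 216) and 142 (138 to 147), a log2 ratio of -0.56 (-0.62 to -0.50). The mix of classes differed between the libraries (fibroblast-like cells were 28.2% of control and 49.6% of ENPP1CKO cells), and its part in the ratio over all cells was not tested. Over all cells 1 of the 10 genes was past 1.5-fold, where 19.3% of all genes were, and it was Bik at 0.87 (0.41 to 1.35), which within endothelial-like cells was at 0.12 (-0.51 to 0.80). With thinned cells 5 were past it over all cells, Mcl1 at -0.91, Bak1 at -0.71, Bok at 0.59, Bmf at -1.44 and Bik at 0.62, and Bik within endothelial-like cells turned to -0.20. Endothelial-like cells made up 3.67% of control and 12.9% of ENPP1CKO cells.

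In endothelial-like cells 1 of 9 genes was past 1.5-fold, where 26.5% of all genes were, and this was Bcl2l2 at 0.63 (-0.79 to 2.38), from 5 and 24 counts. Bcl2l11 was lower by 0.58 (interval -1.13 to -0.01) and Bok was at -0.32 (-0.73 to 0.10), which turned to 0.17 with cells thinned to 1000 counts. The thinned ratios past 1.5-fold there were those of Bcl2 (1.66), Bcl2l11 (-0.85) and Bad (0.64). The cells of the larger endothelial-like cluster had a median of 2617.5 counts in control and 1430.5 in ENPP1CKO. In smooth muscle or pericyte-like cells (77 and 159 cells) 4 of 6 genes were past 1.5-fold, where 30.4% of all genes were. Of these, Bok at -1.99 (-3.34 to -0.82), from 28 and 8 counts, had an interval that excluded 0. With cells thinned to 1000 counts, Bad alone still had 20 counts, so the other ratios could not be taken. In T or NK cell-like cells Bcl2 was higher by 0.64 (0.21 to 1.08) and Mcl1 by 1.36 (0.17 to 2.72). The genotype and the library cannot be told apart in any of these ratios.

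**Figure D5:**
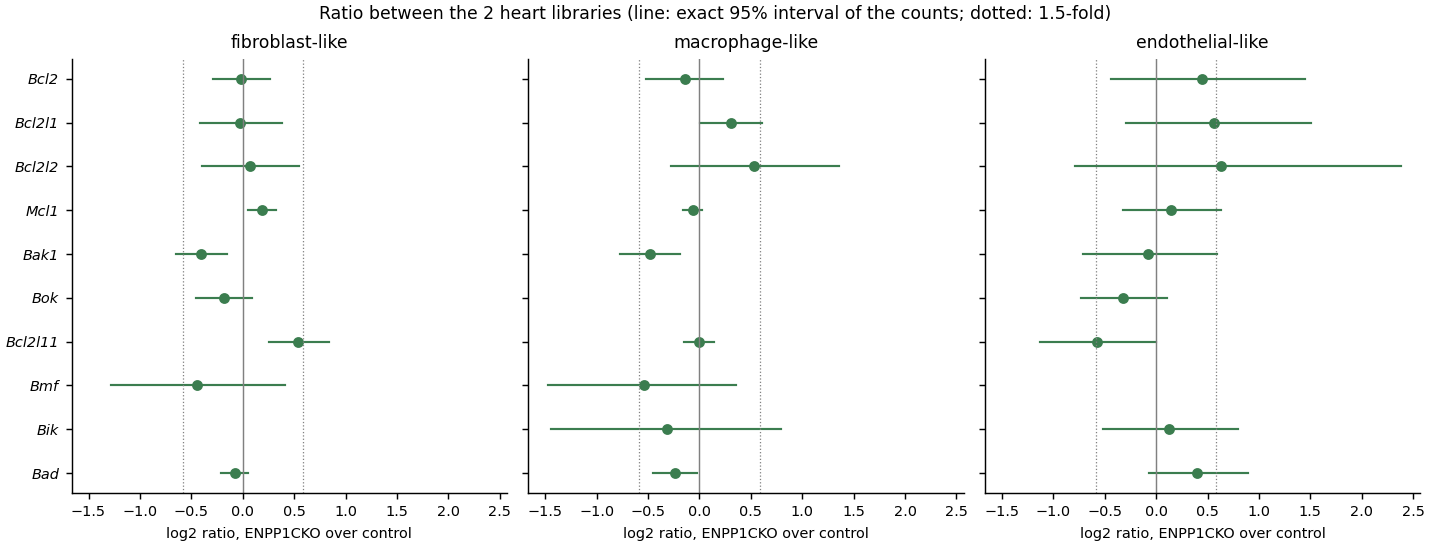
Log2 ratio of ENPP1CKO over control (horizontal axis) for each gene with at least 20 counts in fibroblast-like, macrophage-like and endothelial-like cells, with exact 95% intervals of counting error from 1 library a genotype and dotted lines at 1.5-fold. Bak1 lay below 0 in fibroblast-like and macrophage-like cells, at -0.40 and -0.48, and Bcl2l11 above it in fibroblast-like cells, at 0.54.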

How the data were processed

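RNA was sequenced from CFs (20 libraries), NRVM (15 libraries) and nonmyocytes of injured hearts (2 single-cell libraries). The authors deposited whole-number read counts per gene for CFs and NRVM and UMI counts per gene and cell for hearts. The submitters' processing notes name STAR 2.5.3a, Cell Ranger and the builds mm10 and rn6, and the counter, its annotation and its use of strand are not given in the sources used here. Low genes were removed with filterByExpr, and edgeR 4.0.16 fitted 1 robust quasi-likelihood model per experiment over all groups with TMM factors, with Benjamini-Hochberg adjustment over all genes tested and a threshold of 0.05. The steps were tested on simulated data. Alternatives were DESeq2 1.42.0, DESeq2 size factors, no filter, a replicate block, only the groups compared, and each library left out. Cells were kept from 200 detected genes upward if mitochondrial counts did not exceed 20%, doublets called by Scrublet were removed (1.35% of control and 1.93% of ENPP1CKO barcodes), and cells were clustered in scanpy 1.11.5 (2000 variable genes without the 10 genes and Enpp1, 30 components, 15 neighbors, Leiden resolution 0.5). Counts were summed per class, with exact 95% intervals that cover counting error only. Depth ranged from 32184799 to 115824659 counts in CFs and from 13481389 to 16977980 in NRVM. Positions are from GENCODE on GRCm38. Beside the 10 genes, the text names other family genes that passed the test in ENPP1+ATP or AMP against vehicle, up to 3 genes per direction of the other lists with the largest change called in ENPP1+ATP at 24 h, and the 3 genes most correlated with each of the 2 members with the largest change there. The genes and lists were chosen with earlier results of these data known. Some items that these rules would name are not reported here.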

Additional observations from a re-analysis of the deposited data

Results flagged for a closer look

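The difference from vehicle in CFs changed between 24 and 48 h for 8 genes with ENPP1+ATP MCndM and 6 with AMP MCndM, where 30% and 31.7% of all genes did, by the interaction term of edgeR's quasi-likelihood test (48 h difference minus 24 h difference, log2). With ENPP1+ATP it was 0.70 for Bcl2, 0.92 for Bcl2l1, 0.40 for Bcl2l2, 0.29 for Mcl1, 0.32 for Bak1, -0.42 for Bcl2l11 and 0.54 for Bmf. The call of Bmf was lost in 7 of 8 refits without 1 library and that of Bak1 in 2 of 8. For Bik the fitted value was -5.86, which rests on 0 and 1 reads at 48 h, depends on the prior count and is no bound. With AMP it was 0.78 for Bcl2, 0.72 for Bcl2l1, 0.66 for Bcl2l2, 0.26 for Mcl1, -0.49 for Bcl2l11 and 1.02 for Bmf.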

How the results depend on the processing

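No call of the 10 genes in CFs or NRVM changed direction under any alternative that was run. Of 62 calls in CFs, 60 were kept by DESeq2, 60 with DESeq2 size factors, 58 without a filter and 60 with only the groups compared, and 263 of 304 refits without 1 library kept them. Of 16 calls in NRVM, 14 were kept by DESeq2 and 82 of 96 refits without 1 library kept them. The changes named here were not tested for a cause.

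Replicate numbers did not pair the libraries (r of same-numbered deviations from -0.112 to 0.277 over 45 pairs of CF groups, 3 of them above 0.1, and -0.058 to 0.058 over 10 pairs of NRVM groups). With the replicate block, 61 of 62 CF calls were kept, AMP against ENPP1+ATP at 48 h gave 47 genes in place of 29, and vehicle at 48 against 24 h gave 2 of the 10 genes in place of 1.

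DESeq2 size factors gave 2 of the 10 genes between the vehicle times. DESeq2 gave 158 genes for AMP against ENPP1+ATP at 48 h, 2 of the 10 genes between the vehicle times and 3 in place of 5 with ENPP1+ATP in NRVM. Without a filter, ENPP1 gave 26 and 180 genes at 24 and 48 h in CFs and 14 in NRVM in place of 0, ATP at 48 h gave 1 of the 10 genes in place of 2, and AMP against ENPP1+ATP gave 2 of the 10 genes at 24 h in place of 1, and 322 genes and 1 of the 10 at 48 h in place of 29 and 0. With only the groups compared, ATP at 48 h gave 2590 genes in place of 1400, ENPP1 at 48 h gave 1 and ENPP1 in NRVM 5 in place of 0, AMP against ENPP1+ATP gave 382 in place of 1118 at 24 h and 2 at 48 h, and the vehicle times gave 2485 genes in place of 873 and 4 of the 10.

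Without 1 library, AMP against ENPP1+ATP gave 255 to 1183 genes and 1 to 2 of the 10 at 24 h and 2 to 106 genes at 48 h. AMP at 48 h gave 3 to 6 of the 10 genes, and ATP gave 920 to 1205 genes and 1 to 3 of the 10 at 24 h and 646 to 929 genes and 1 of the 10 at 48 h. ENPP1 at 48 h gave 0 to 129 genes, ENPP1+ATP against ATP at 24 h gave 5 to 7 of the 10, the vehicle times gave 235 to 440 genes and 0 to 1 of the 10, and ENPP1+ATP in NRVM gave 3 to 5 of the 9.

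Between the heart libraries, the number of genes past 1.5-fold with cells thinned to 1000 counts was 3 in place of 0 in fibroblast-like, 1 in place of 0 in macrophage-like, 3 in place of 1 in endothelial-like, 0 in place of 4 in smooth muscle or pericyte-like (where Bad alone still had 20 counts) and 5 in place of 1 over all cells, with 423 control and 504 ENPP1CKO cells left out. It was 1 in fibroblast-like cells at Leiden resolution 1.0 and with the cluster led by Acta2 and Cthrc1 added. Keeping doublets gave 2 for the macrophage-like class and 2 for the endothelial-like class, and no fibroblast-like class was named there. A stricter cell filter gave 1 for macrophage-like cells and 2 for the endothelial-like class and TMM scaling gave 2 in the latter. Thinned log2 ratios that moved included those of Bok in endothelial-like cells (0.17 in place of -0.32), Bcl2 there (1.66), Bcl2l1 (0.65) and Bcl2l2 (-0.43) in fibroblast-like cells, Bak1 in macrophage-like cells (-0.91) and Mcl1 (-0.91) and Bmf (-1.44) over all cells. Low counts limited Bik and Bok in CFs, Bik in NRVM, and Bmf and Bcl2l2 in single cells, and 1 library per genotype allowed no test.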
